A study of Mus musculus with 8 samples.

Results

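AA467197, also called Nmes1, and Ndufa4 are 2 of the 24346 genes listed for each of 8 RNA-sequencing libraries of mouse bone marrow hematopoietic cells. They were taken by name, and both were found in all 8 libraries. AA467197 was picked because its level was higher with red blood cells (RBCs) in hematopoietic stem cells (HSCs) and in LSK cells, and alike between these populations. Its own levels and its ratio to Ndufa4 are therefore given as a description, with no test. Ndufa4 was added as its counterpart and not for its own values, so that it could be tested.

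HSCs were primary WT bone marrow cells sorted as Lin- Sca-1+ c-Kit+ CD48- CD150+, and LSK cells were sorted as Lin- Sca-1+ c-Kit+, a wider population that contains the HSCs. Each was cultured for 1 day with thrombopoietin and stem cell factor, either alone (Ctrl) or together with irradiated, leukocyte-filtered mouse RBCs, and CD45+ cells were sorted again after lysis of the RBCs. There were 2 libraries in each of the 4 groups. The labels give no age and do not say whether libraries of a group came from separate animals or cultures, so that p-values measure only the spread between these libraries.

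Complex IV, or cytochrome c oxidase, is the last enzyme of the mitochondrial respiratory chain and passes electrons to oxygen. NDUFA4 was first assigned to complex I and is now regarded as a subunit of complex IV. The product of AA467197 belongs to the same small protein family and can take the place of NDUFA4 in complex IV; its human counterpart, C15ORF48, is known for induction in inflamed cells and macrophages. The AA467197 transcript also carries the hairpin of the microRNA miR-147, and the Ndufa4 transcript is a known target of the miR-147 family.

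AA467197 lies on the plus strand of chromosome 2 (chr2:122636986-122641191, GRCm38, GENCODE vM21) and has 4 annotated transcripts, 3 of them protein coding. The Mir147 hairpin is inside it (chr2:122640803-122640881, plus strand), in the 3′ untranslated part of the last exon of the 792-base transcript. Ndufa4 lies on the minus strand of chromosome 6 (chr6:11900292-11907497) with 5 annotated transcripts, 4 of them protein coding. The sequence below is the 5p arm of this hairpin as RefSeq lists it (chr2:122640814-122640837, plus strand, GRCm38.p6), shown because the AA467197 transcript carries it, with the seed (bases 2 to 8) in capitals. The 3p arm is not printed here, and no site of either arm in Ndufa4 was searched for.
mmu-miR-147-5p: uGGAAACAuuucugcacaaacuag

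The promoter windows of both genes, from 250 bases before to 50 bases after the RefSeq start, were searched on both strands for 4 motifs chosen with these windows in view. The AA467197 window held the E-box CACGTG, found in 7.15% of 32817 mouse promoter windows of the same length, and the AP-1 motif TGANTCA, found in 7.81%. Both together were found in 0.509% of the windows. They do not overlap and stand 3 bases apart, starting 82 and 73 bases before the start. The Ndufa4 window held neither of them, but held the N-box CACNAG, as did 42.5% of all windows, whereas neither gene's window held the NF-kB motif (8.46% of windows). A match describes letters and not a bound site. A stretch of the AA467197 window that holds both motifs and no annotated exon (chr2:122637755-122637849, plus strand, GRCm38.p6) is printed to show the spacing, with the motifs in capitals. It lies in an intron of the annotated transcript with the most upstream start.
AA467197 promoter: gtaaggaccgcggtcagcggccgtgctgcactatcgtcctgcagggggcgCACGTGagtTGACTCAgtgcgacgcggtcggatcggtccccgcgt

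Levels are FPKM, fragment numbers adjusted for how long the transcript is and how deep the library is, so that genes of different length can be set side by side. Per library, FPKM values summed to between 680942 and 752107 and between 14829 and 16551 genes were above 0. Slamf1, which encodes CD150, was at 10.2 and 10.7 FPKM in HSCs alone and at 4.58 and 4.63 in LSK cells alone, and Cd48 at 42.7 and 40.5 against 147 and 184, in the order the sorting labels give. If the lowest recurring step of genes of 500 to 900 bases is 1 fragment, AA467197 rests on roughly 120.0 to 920.0 fragments per library and Ndufa4 on roughly 6000.0 to 8300.0.

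AA467197 was low in cells cultured alone and well above that level in cells cultured with RBCs, in both populations. In HSCs alone its FPKM was 13.6 and 21.9, and in HSCs with RBCs it was 83.5 and 109. In LSK cells alone it was 16.2 and 27.1, and in LSK cells with RBCs it was 131 and 126. All 4 libraries with RBCs were above all 4 libraries without them, and within each population the lowest library with RBCs was at least 3.82 times the highest without. By level, AA467197 stood between places 4062 and 6082 of all listed genes in cells alone and between places 919 and 1537 with RBCs.

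The mean FPKM of AA467197 in HSCs was 17.8 ± 5.81 (SD, n = 2) alone and 96.3 ± 18.1 (SD, n = 2) with RBCs, 5.43 times as high. In LSK cells it was 21.7 ± 7.68 (SD, n = 2) alone and 128 ± 3.12 (SD, n = 2) with RBCs, 5.92 times as high. On the log2(FPKM + 1) scale, which slightly understates such differences, the values were 2.40 in HSCs and 2.56 in LSK cells (standard error 0.249 each, limma). By size, these differences took place 22 and place 16 among the 12003 genes tested, and the gene was picked on them. Ordered by mean, the groups ran from HSCs alone through LSK cells alone and HSCs with RBCs to LSK cells with RBCs. The libraries of both groups alone overlapped, whereas the lower LSK library with RBCs was 1.16 times the higher HSC library with RBCs. The difference between LSK cells and HSCs was 0.27 alone and 0.42 with RBCs on the log2 scale (standard error 0.249 each). Replicates of AA467197 differed most in cells alone, by 1.60-fold in HSCs and 1.67-fold in LSK cells, against 1.31-fold and 1.03-fold with RBCs.

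**Figure D1:**
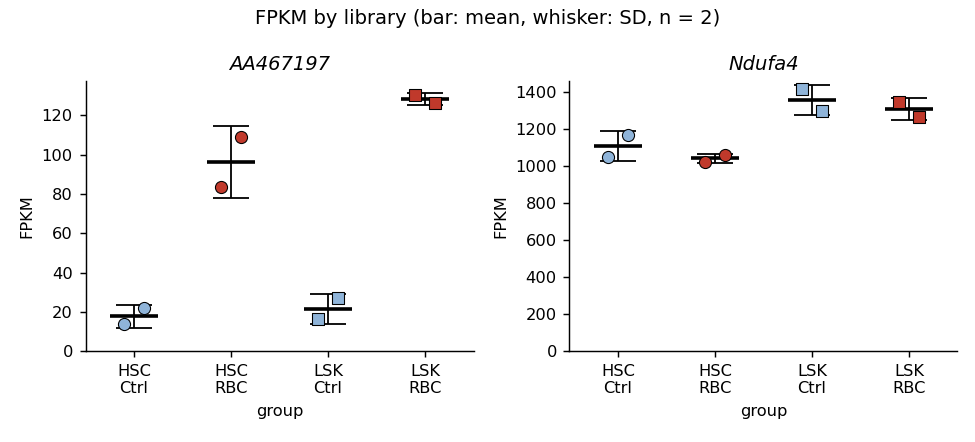
FPKM of AA467197 (left) and Ndufa4 (right) in each library of HSCs and LSK cells cultured alone (Ctrl) or with RBCs, with linear axes from 0; thick bars are means and whiskers SD of n = 2. AA467197 sits between 13.6 and 27.1 FPKM in cells alone and between 83.5 and 131 with RBCs, while Ndufa4 stays between 1024 and 1414 in all libraries.

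Ndufa4 was among the most abundant transcripts in every library, between places 67 and 96 of all listed genes. Its FPKM was 1050 and 1166 in HSCs alone and 1024 and 1059 in HSCs with RBCs. In LSK cells it was 1414 and 1298 alone and 1348 and 1265 with RBCs. The libraries with and without RBCs overlapped in both populations, and all 4 LSK libraries were above all 4 HSC libraries.

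With RBCs, no change of Ndufa4 passed the test in HSCs or in LSK cells. Its mean FPKM was 1108 ± 81.9 in HSCs alone and 1041 ± 24.4 with RBCs (SD, n = 2 each), a log2 difference of -0.09 (95% confidence interval -0.26 to 0.08, limma adjusted p = 0.707). In LSK cells it was 1356 ± 82.1 alone and 1307 ± 58.7 with RBCs (SD, n = 2 each), a log2 difference of -0.05 (interval -0.23 to 0.12, limma adjusted p = 0.765). A call needed a Benjamini-Hochberg adjusted p under 0.05 over all genes tested and at least a 2-fold change; 0.775% of the 12003 genes were called in HSCs and 1.01% in LSK cells. As ratios, the intervals ran from 0.835 to 1.06 in HSCs and from 0.855 to 1.09 in LSK cells. The effect in HSCs minus that in LSK cells was -0.03 (interval -0.28 to 0.21, limma adjusted p = 0.928), a contrast in which 0.108% of all genes were called.

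Between populations, Ndufa4 was 1.22-fold higher in LSK cells than in HSCs alone and 1.25-fold higher with RBCs. The log2 differences were 0.29 (interval 0.12 to 0.46, limma adjusted p = 0.0342) and 0.33 (interval 0.15 to 0.50, limma adjusted p = 0.0143). These pass the adjusted p and not the 2-fold threshold, as did many genes: 14.2% of all genes tested had an adjusted p under 0.05 in the comparison alone and 24.4% in that with RBCs, in either direction. The adjusted p depended on the settings, ranging from 9.0e-04 to 0.148 alone and from 3.7e-04 to 0.0539 with RBCs over 10 other settings. With 1 library left out it ranged from 0.0150 to 0.192 and from 0.0542 to 0.109, with the direction kept in all of these fits. With 2 libraries against 2, an exact permutation test of 1 gene cannot pass 0.05.

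Per 100 FPKM of Ndufa4, the libraries of HSCs alone held 1.30 and 1.88 FPKM of AA467197, and those of HSCs with RBCs 8.16 and 10.3. The LSK libraries held 1.15 and 2.09 alone and 9.69 and 9.98 with RBCs. The 2 populations overlapped in both culture conditions, and libraries with and without RBCs did not. The mean ratio was 1.59 ± 0.407 in HSCs alone and 9.23 ± 1.52 with RBCs (SD, n = 2 each), 5.82 times as high. In LSK cells it was 1.62 ± 0.664 alone and 9.83 ± 0.203 with RBCs (SD, n = 2 each), 6.08 times as high. Put the other way, Ndufa4 outnumbered AA467197 by 47.9 to 87.0 to 1 in cells alone and by 9.70 to 12.3 to 1 with RBCs. The LSK cells, with more Ndufa4 and slightly more AA467197, had about the ratio of the HSCs, with log2 differences in the ratio of -0.03 alone and 0.10 with RBCs.

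Within the sum of both transcripts, AA467197 made up 1.14% to 2.05% of it in cells alone and 7.54% to 9.35% with RBCs. The sum was 1126 ± 87.8 FPKM in HSCs alone and 1138 ± 42.5 with RBCs, and 1378 ± 74.4 in LSK cells alone and 1435 ± 61.9 with RBCs (SD, n = 2 each). In both populations the libraries with and without RBCs overlapped in this sum. The mean FPKM of AA467197 was higher with RBCs by 78.6 in HSCs and by 107 in LSK cells, and that of Ndufa4 differed by -66.9 and -49.6.

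**Figure D2:**
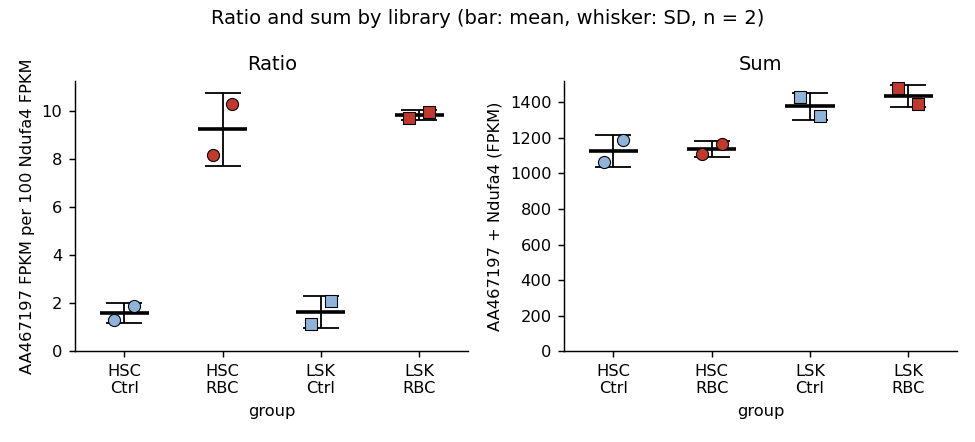
FPKM of AA467197 per 100 FPKM of Ndufa4 (left) and the summed FPKM of both (right) in each library, with linear axes from 0; thick bars are means and whiskers SD of n = 2. The ratio lies between 1.15 and 2.09 in cells alone and between 8.16 and 10.3 with RBCs, and the sum separates LSK cells from HSCs and not the culture conditions.

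Ndufa4l2, the third member of the family and known for its induction by hypoxia, was listed at 0 in 6 of the 8 libraries and at 0.101 and 0.114 FPKM in replicate 1 of the HSCs and of the LSK cells with RBCs. The Mir147 row was listed at 0 in all 8 libraries. These full-length cDNA libraries are primed on poly(A) tails and do not capture mature microRNAs, so the row does not report the level of miR-147. The Ndufa4 transcripts share 90.9% to 93.1% of their bases over 220 to 246 bases with 3 annotated pseudogenes, Gm14450, Gm14630 and Gm45446, which have no row of their own here, and 86.8% over 76 bases with Ndufa4l2. How reads shared with these copies were assigned is not given in the sources used here. AA467197 shared such a stretch only with Mir147.

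None of the tested genes next to AA467197 or Ndufa4 was called, and few of all genes tested were. Of the genes within 100 kb, 5 passed the expression filter of at least 1 FPKM in at least 2 libraries. By limma 0 of 5 were called in any of the comparisons, where 0.108% to 3.61% of all genes were called, so that 0 of 5 is near these shares. At an unadjusted p under 0.05 there was 1 with RBCs in HSCs, 0 in LSK cells, and 2 between the populations in each culture condition. Counts at an unadjusted p, here and below, stand without the share of all genes, and no result is read from them. Spata5l1, 4056 bases before AA467197 on the same strand, was at 4.70 and 5.21 FPKM in HSCs alone and at 6.38 and 5.94 with RBCs. In LSK cells it was at 4.74 and 5.80 alone and at 5.58 and 5.33 with RBCs. Gatm, which encodes the first enzyme of creatine synthesis, differed by -0.31 in HSCs with RBCs (limma adjusted p = 0.14) and by -0.13 in LSK cells (limma adjusted p = 0.485). Slc30a4, a zinc transporter gene, and Bloc1s6, a gene for a subunit of the lysosome-related organelle complex BLOC-1, had log2 differences with RBCs of -0.05 and -0.16 in HSCs and of 0.36 and 0.14 in LSK cells. Phf14, which starts 312 bases from Ndufa4 on the opposite strand, had log2 differences of 0.22 and 0.09 with RBCs. Between LSK cells and HSCs it differed by 0.51 alone (limma adjusted p = 0.0727) and by 0.38 with RBCs (limma adjusted p = 0.126).

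The list of complex IV subunits held 20 besides Ndufa4, of which 17, all nuclear-encoded, had a row and 15 passed the filter; the subunits that mitochondrial DNA encodes were not analysed here. Among the nuclear-encoded subunits of the list, Ndufa4 had the highest FPKM in all 8 libraries. The next highest was Cox6b1 in the 4 HSC libraries, at 991 to 1128 FPKM, and Cox4i1, a core regulatory subunit, in the 4 LSK libraries, at 863 to 938. AA467197 was above 3 of these 15 subunits in cells alone and above 4 with RBCs, in every library. With RBCs it passed Cox6b2, an isoform known from testis, which was at 41.2 to 63.2 FPKM in those libraries. It stayed below Cox7a2l, a supercomplex factor, at 152 to 187 FPKM in all 8 libraries.

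**Figure D3:**
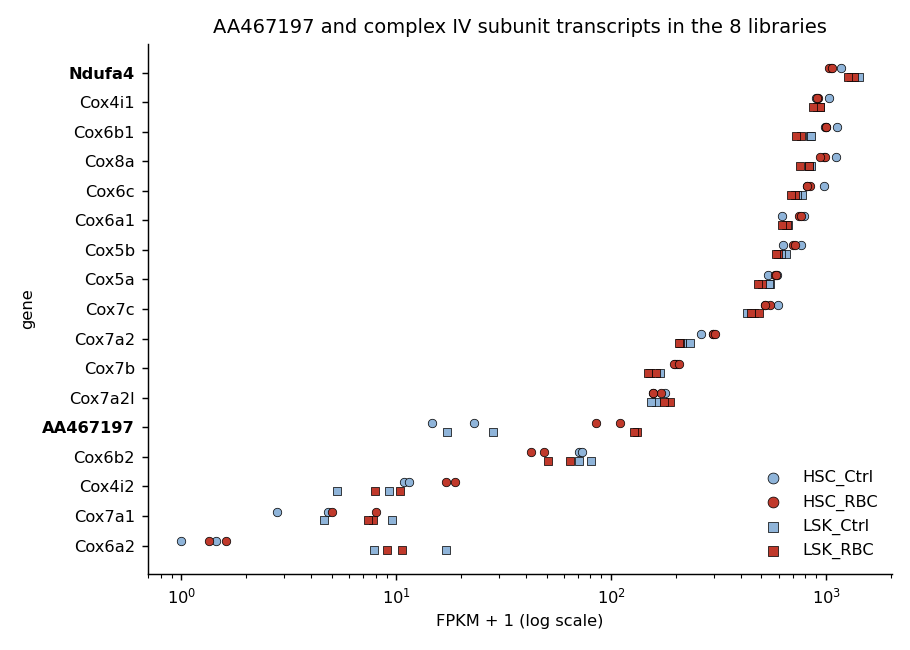
FPKM + 1 on a log axis for AA467197, Ndufa4 and 15 other complex IV subunits, ordered by mean, with 1 symbol per library (circles HSCs, squares LSK cells, blue alone, red with RBCs). Of the nuclear-encoded subunits plotted, Ndufa4 is at the top in every library, and AA467197 shifts from 13.6 to 27.1 FPKM alone to 83.5 to 131 with RBCs, between Cox6b2 and Cox7a2l.

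With RBCs, 0 of 15 complex IV subunits were called by limma in HSCs or in LSK cells (2 and 3 at an unadjusted p under 0.05). Of all genes tested, 0.775% and 1.01% were called, so that 0 of 15 is near these shares. The median log2 difference of the list with RBCs was 0.01 for HSCs and -0.08 for LSK cells, against -0.01 for each over all genes tested. Without the fold threshold, 1 of 15 fell in HSCs, against 0.958% of all genes, and 0 of 15 passed in LSK cells, against 3.45% of all genes in either direction. That gene was Cox6b2, which was at 69.5 and 72.3 FPKM in HSCs alone and at 47.6 and 41.2 with RBCs. Its log2 difference was -0.67 in HSCs (limma adjusted p = 0.0213) and -0.40 in LSK cells (limma adjusted p = 0.112), the lowest of the list in both. The highest value in HSCs was that of Cox7a1, an isoform of heart and skeletal muscle, at 0.80 (limma adjusted p = 0.392). In LSK cells it was that of Cox4i2, an isoform known from lung, at 0.37 (limma adjusted p = 0.443). Cox4i2 was at 9.88 and 10.4 FPKM in HSCs alone and at 17.8 and 16.1 with RBCs.

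The factors that build complex IV and the NDUFA subunits of complex I, among which Ndufa4 was once counted, were not called with RBCs either. Few of all genes tested were, 0.775% in HSCs and 1.01% in LSK cells, and the counts of 0 below are near these shares. Of 28 assembly factors tested, 0 were called by limma in HSCs or LSK cells (1 and 3 at an unadjusted p under 0.05), with median log2 differences of -0.01 and -0.05. Of 13 NDUFA subunits, 0 were called by limma in either (0 and 2 at an unadjusted p under 0.05), with medians of 0.00239 and -0.04. Without the fold threshold, 0 of these 28 and 13 genes passed with RBCs, against 2.53% of all genes in HSCs and 3.45% in LSK cells.

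Between the populations, some of the other subunits were lower in LSK cells, where Ndufa4 was higher. None of these was lower by 2-fold on the log2(FPKM + 1) scale. Cox4i2 came nearest, at -0.98 with RBCs, and its mean FPKM there was 16.9 in HSCs and 8.16 in LSK cells, past 2-fold. By adjusted p alone, 5 of 15 complex IV subunits were lower in LSK cells cultured alone, against 7.29% of all genes tested, 1 was higher, against 6.93%, and 9 did not pass. With RBCs, 6 were lower, against 12.5%, 1 was higher, against 11.9%, and 8 did not pass. The 1 higher was Cox6a2 in both. The median log2 difference of the list was -0.12 alone and -0.24 with RBCs, against 0.01 in both over all genes tested. Without replicate 2 of the HSCs alone the first of these medians was 0.00207, so that it rests on that library. With quantile normalization the medians were -0.0137 alone and -0.0823 with RBCs, so that the size of both rests on the scaling. Cox6b1 was at 991 and 1128 FPKM in HSCs alone and at 839 and 847 in LSK cells alone, a log2 difference of -0.33 (limma adjusted p = 0.0176), and at 992 and 992 against 765 and 726 with RBCs, a log2 difference of -0.41 (limma adjusted p = 0.00394). Cox7a2, Cox7b and Cox8a, further small structural subunits, were also lower in both comparisons, Cox7c in cells alone, and Cox5a and Cox4i2 with RBCs.

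Cox6a2, an isoform known from striated muscle, was the only list member past the fold threshold, where 2.66% of all genes were called alone and 3.61% with RBCs. It was under 1 FPKM in all 4 HSC libraries, at 0.456 and 0 alone and at 0.342 and 0.604 with RBCs, and at 6.84 and 16.0 in LSK cells alone. It passed the expression filter only through the LSK libraries and so had to differ, and its call is no support for a difference of the list. Of the NDUFA subunits of complex I, 0 of 13 were called by limma between the populations (6 alone and 10 with RBCs at an unadjusted p under 0.05). By adjusted p without regard to fold, 3 were lower alone and 5 with RBCs, against 7.29% and 12.5% of all genes, and 0 were higher, against 6.93% and 11.9%. Ndufa3 and Ndufa5, subunits of the membrane arm and of the matrix arm, had log2 differences of -0.60 and -0.43 alone and of -0.62 and -0.71 with RBCs. Of the 28 assembly factors, 0 were called by limma (7 and 4 at an unadjusted p under 0.05).

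**Figure D4:**
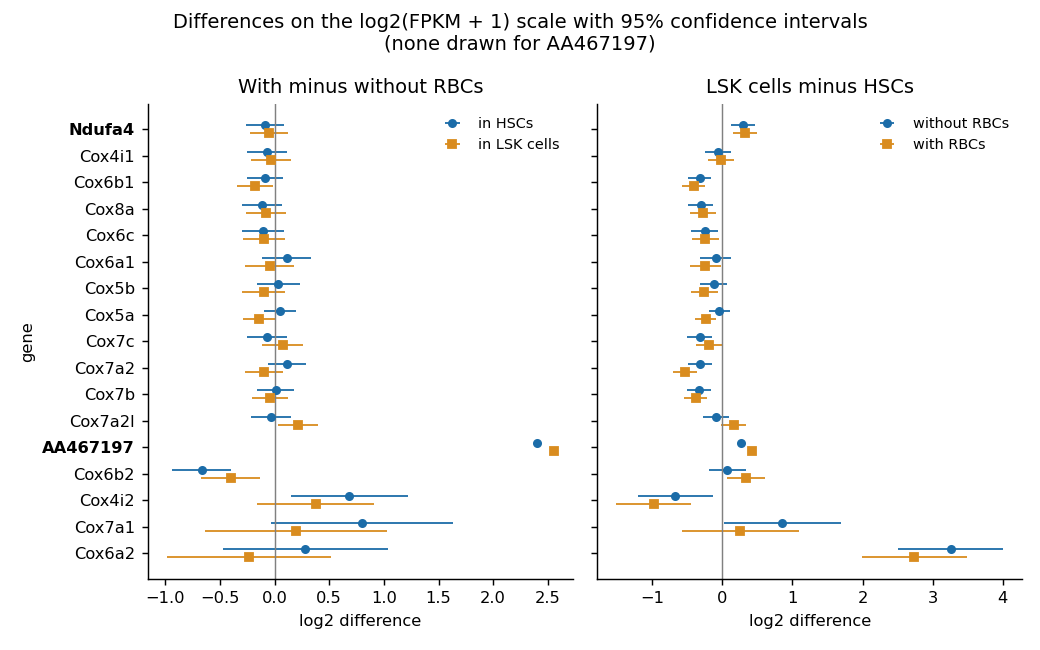
Log2 differences on the log2(FPKM + 1) scale with RBCs against alone (left, in HSCs and LSK cells) and in LSK cells against HSCs (right, alone and with RBCs), with limma 95% confidence intervals, for Ndufa4, AA467197 (no interval drawn) and 15 other complex IV subunits. Ndufa4 lies at -0.09 and -0.05 on the left and at 0.29 and 0.33 on the right, where Cox6b1 lies at -0.33 and -0.41.

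Set against the summed FPKM of itself and these 15 subunits, Ndufa4 took 13.6% and 13.1% in HSCs alone, 12.7% and 13.2% in HSCs with RBCs, 18.2% and 17.4% in LSK cells alone and 18.05% and 17.98% in LSK cells with RBCs. This share, computed after the values had been seen, was 13.2% ± 0.367 in HSCs and 17.9% ± 0.338 in LSK cells (SD, n = 4 each). It was higher in all 4 LSK libraries than in all 4 HSC libraries, which is given as a description with no test. The subunits that mitochondrial DNA encodes were not part of the sum. AA467197, added to that sum, took 0.177% to 0.362% in cells alone and 1.03% to 1.76% with RBCs.

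Because C15ORF48 is known as a gene of inflamed cells, transcripts of the NF-kB and Toll-like receptor response were set beside AA467197. Of 29 listed genes with a row, 21 passed the filter. With RBCs, 0 of 21 were called higher in HSCs, against 0.633% of all genes, and 2 of 21 lower, against 0.142%. In LSK cells 0 were called higher, against 0.9%, and 1 lower, against 0.108%. By limma, 9 and 7 of the 21 had an unadjusted p under 0.05. The median log2 difference of these 21 genes was -0.03 for HSCs and 0.10 for LSK cells. The calls in HSCs numbered 1 without replicate 2 of the HSCs alone or either library of the HSCs with RBCs, and the call in LSK cells was lost when any of the 4 LSK libraries was left out.

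The genes called lower in HSCs encode the chemokines CCL3 and CCL4. Ccl4 was at 24.2 and 29.8 FPKM in HSCs alone and at 10.4 and 6.93 with RBCs, a log2 difference of -1.55 (limma adjusted p = 0.00421), and Ccl3 had one of -1.24 (limma adjusted p = 0.0273). In LSK cells, Clec4e, a receptor for microbial glycolipids, had a log2 difference of -1.01 (limma adjusted p = 0.03). Without the fold threshold, 1 of 21 was higher and 2 were lower in HSCs, against 1.57% and 0.958% of all genes, and 2 were higher and 1 was lower in LSK cells, against 2.32% and 1.13%. Icam1, an adhesion molecule gene, was the one higher in HSCs, with a log2 difference of 0.78 (limma adjusted p = 0.0123). Traf1, a signalling adaptor gene, and Bcl3, an IkB family gene, were higher in LSK cells, with log2 differences of 0.69 and 0.68 (limma adjusted p = 0.0492 and 0.0246). Between LSK cells and HSCs alone, 4 of 21 were called higher (Ccl3, Ccl4, Clec4e and the cytokine gene Il1b), against 1.62% of all genes, and 2 lower (Bcl3 and Traf1), against 1.03%. With RBCs, 3 were called higher (Ccl3, Ccl4 and Clec4e), against 2.61%, and 0 lower, against 1%.

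Markers of other blood cells also differed with the culture condition. Of 10 neutrophil markers tested, 2 were called higher with RBCs in HSCs, against 0.633% of all genes, and 3 in LSK cells, against 0.9%. In HSCs these were S100a8 and S100a9, which encode the subunits of calprotectin. S100a8 was at 5.70 and 2.32 FPKM in HSCs alone and at 147.5 and 22.3 with RBCs, a log2 difference of 3.64 (limma adjusted p = 0.0283), and S100a9 had one of 4.32 (limma adjusted p = 0.0193). In LSK cells they were Retnlg and the protease genes Mmp8 and Mmp9. Retnlg was at 7.14 and 3.64 FPKM alone and at 61.5 and 41.7 with RBCs (log2 difference 3.07, limma adjusted p = 0.0104). Mmp9 passed the expression filter only through the LSK libraries with RBCs, so that its call is no support for a difference of the list.

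The summed FPKM of the 10 neutrophil markers was 8.54 to 10.6 in HSCs alone and 46.4 to 254 with RBCs, and 129 to 221 in LSK cells alone and 365 to 572 with RBCs. Lcn2 and Mmp9 were listed at 0 in HSCs alone. Within each population these sums, like AA467197, were higher with RBCs than alone. In both LSK groups the replicate with the higher sum had more AA467197, and in both HSC groups it had less. Replicate 2 of the HSCs with RBCs, with a neutrophil sum of 46.4, had 109 FPKM of AA467197, and replicate 1, with a sum of 254, had 83.5. Both LSK libraries alone, with sums of 129 and 221, had 16.2 and 27.1 FPKM. Those with RBCs, with sums of 572 and 365, had 131 and 126.

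Of 6 monocyte or macrophage markers tested, 1 was called higher with RBCs in HSCs, against 0.633% of all genes, and 2 in LSK cells, against 0.9%. Csf1r, the receptor gene for macrophage colony-stimulating factor, was at 2.53 and 2.81 FPKM in HSCs alone and at 7.07 and 9.37 with RBCs (log2 difference 1.32, limma adjusted p = 0.0121). The LSK libraries held it at 14.1 and 22.8 alone and at 47.2 and 54.3 with RBCs (log2 difference 1.44, limma adjusted p = 0.00753). Ccr2, a chemokine receptor gene of monocytes, was at 7.61 and 4.57 FPKM in LSK cells alone and at 34.4 and 35.0 with RBCs (log2 difference 2.37, limma adjusted p = 5.8e-04). The sum of all 12 markers of this list was 91.6 to 117 in HSCs alone and 111 to 119 with RBCs, most of it Cd68, at 85.9 to 107 FPKM in these libraries. The same sum in LSK cells was 73.0 to 85.5 alone and 162 to 166 with RBCs. The replicate with the higher sum also had more AA467197 in every group except LSK cells with RBCs. The complement gene C1qa was at 0 in both libraries of every group.

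Of 6 red blood cell markers tested, 3 were called higher in HSCs with RBCs, against 0.633% of all genes, and 1 in LSK cells, against 0.9%. The globin gene Hba-a1 was at 0.0826 and 1.40 FPKM in HSCs alone and at 116 and 88.7 with RBCs (log2 difference 5.99, limma adjusted p = 3.8e-05). The LSK libraries held it at 0.864 and 1.53 alone and at 32.9 and 43.1 with RBCs (log2 difference 4.16, limma adjusted p = 4.7e-04). Hbb-b1 was at 1.93 and 1.94 FPKM in HSCs alone and at 65.1 and 31.0 with RBCs (log2 difference 3.97, limma adjusted p = 4.0e-04). The third gene called in HSCs was Alas2, of the heme synthesis of red cells. Alas2 passed the expression filter only through libraries with RBCs, so that its call is no support for a difference of the list.

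The sum of all 8 red blood cell markers was 282 to 338 in HSCs alone and 299 to 308 with RBCs, and 111 to 177 in LSK cells alone and 119 to 184 with RBCs. Most of it in HSCs alone was Hbb-b2, at 279 and 335 FPKM. With RBCs Hbb-b2 was at 120.3 and 158 in HSCs (log2 difference -1.14, limma adjusted p = 0.157). Hbb-b2 is near-identical to Hbb-b1 and Hbb-bs, so that the split of reads between these copies is uncertain. Slc4a1, the gene of the RBC anion exchanger, was at 0 in HSCs in both culture conditions. None of these 3 marker lists held a gene called lower with RBCs, against 0.142% of all genes in HSCs and 0.108% in LSK cells. The sums of 5 B cell and 5 T cell markers stayed between 34.7 and 51.6 and between 0.213 and 1.06. Of 9 HSC and LSK markers, 0 were called higher with RBCs, against 0.633% of all genes in HSCs and 0.9% in LSK cells. In HSCs 1 was called lower, and 0 in LSK cells. It was Cd48, at 42.7 and 40.5 FPKM alone and 16.0 and 22.8 with RBCs (log2 difference -1.08, limma adjusted p = 0.00694). Without the fold threshold, Cd48, Kit and Procr were lower and Cd34 higher in HSCs, against 0.958% and 1.57%, and 0 passed in LSK cells. The part of carried-over cells or RNA in the level of AA467197 was not tested, and in these bulk libraries a change in the number of cells that express it cannot be told apart from a change per cell.

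**Figure D5:**
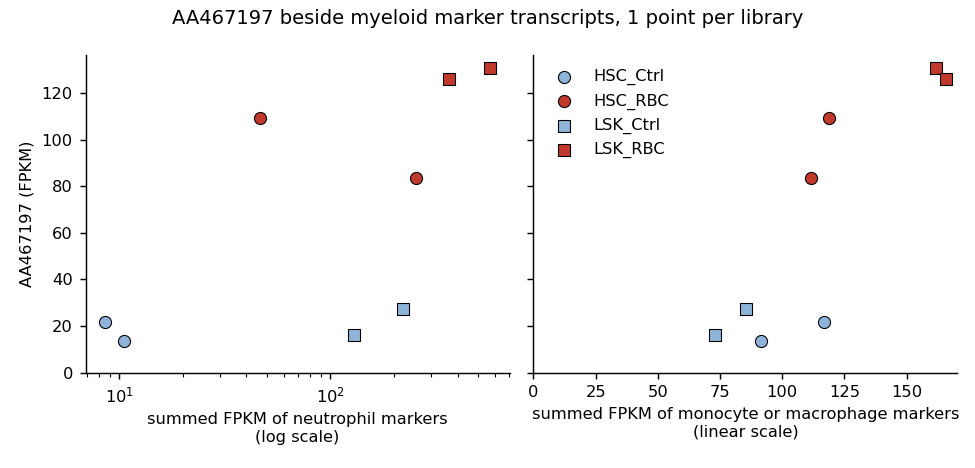
FPKM of AA467197 (linear axis from 0) against the summed FPKM of 10 neutrophil markers (left, log axis) and of 12 monocyte or macrophage markers (right, linear axis), with 1 point per library. Within each population the neutrophil sums with RBCs lie above those alone. The monocyte or macrophage sums do so in LSK cells and overlap in HSCs. The HSC library with RBCs at a neutrophil sum of 46.4 lies at 109 FPKM of AA467197, above both LSK libraries alone, whose sums are 129 and 221.

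The genes whose pattern was most like AA467197 over the 8 libraries included 3 guanylate-binding protein genes, which encode interferon-inducible GTPases. Pearson's r of log2(FPKM + 1) was 0.988 for Gbp4, 0.983 for Gbp9 and 0.979 for Gbp6, followed by Aff4, a subunit gene of the super elongation complex, and Slc34a3, a sodium-phosphate transporter gene, at 0.974 each. Gbp4 was at 5.81 and 5.75 FPKM in HSCs alone, at 25.2 and 25.6 in HSCs with RBCs, at 5.26 and 9.57 in LSK cells alone and at 33.6 and 31.0 in LSK cells with RBCs. Slc34a3 was at 0 to 0.371 FPKM in cells alone and at 0.912 to 1.41 with RBCs. It passed the expression filter only through libraries with RBCs, so that its place among the genes most alike is no support for a shared pattern. These points share libraries and culture condition, and a gene that is higher with RBCs in both populations scores high by construction.

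For Ndufa4, whose pattern is the step between HSCs and LSK cells, the genes most alike were Mxd4, a MYC antagonist gene, at r = 0.980, 4930430F08Rik at 0.977, Ubr4, a ubiquitin ligase gene, at 0.976, Stx3, a syntaxin gene, at 0.973 and Kctd1 at 0.970. Mxd4 was at 9.32 to 12.6 FPKM in the HSC libraries and at 17.4 to 24.8 in the LSK libraries. Ubr4 was at 9.72 to 12.0 and at 14.2 to 16.8. In both genes, as in Ndufa4, the LSK libraries were all above the HSC libraries.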

How the data were processed

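RNA of 8 libraries was sequenced from SMART-Seq HT full-length cDNA. Per the submitters' processing notes, TopHat2 2.1.1, Bowtie2 2.2.8, SAMtools 0.1.18, Cuffdiff 2.2.1 and mm10 were used; the annotation is not given in the sources used here. The authors deposited 1 FPKM value per gene symbol and library, scaled for transcript length and depth, with replicates not pooled. Groups came from the labels.

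From these, log2(FPKM + 1) was computed for the 12003 genes with at least 1 FPKM in at least 2 libraries. limma 3.58.1 (R 4.3.3) fitted all 4 groups in 1 model with a trend and no replicate block (4 residual and 5.18 prior degrees of freedom), with Benjamini-Hochberg adjustment over all genes. Such values say nothing of depth directly, so fragment numbers are estimates. On simulated data for HSCs with 200 of 12003 genes changed 4-fold, 195 were called, and 2 unchanged genes.

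The members, lists, motifs and tests were chosen with earlier results of these data known. Named genes are the family, genes within 100 kb, list members past the threshold, the highest and lowest complex IV subunits, and the 5 genes most alike. List members named without passing the fold threshold, and marker genes, were chosen after their values were seen. Positions came from GENCODE vM21 (GRCm38) and sequences from RefSeq (GRCm38.p6).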

Additional observations from a re-analysis of the deposited data

Results flagged for a closer look

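The effect of RBCs on Hbb-b1, a beta-globin gene, differed between HSCs and LSK cells. On the log2(FPKM + 1) scale the effect in HSCs minus that in LSK cells was 5.21 (limma adjusted p = 0.0031 for the difference itself). Hbb-b1 was at 0.907 and 2.12 FPKM in LSK cells alone and at 0.0438 and 0.0145 with RBCs (log2 difference -1.24, limma adjusted p = 0.0795). How reads shared with the near-identical Hbb-b2 were assigned is not given in the sources used here.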

How the results depend on the processing

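Other pseudocounts, filters, scalings, samples in the fit, a replicate block, no trend, no fold threshold and the omission of each library were tried. The cause of the shifts below was not tested. Ndufa4 with RBCs in LSK cells turned to 0.0130 with quantile normalization, and with 1 library left out ranged from -0.11 to 0.00866, positive only without LSK_Ctrl replicate 1. The difference of its effects between HSCs and LSK cells ranged from -0.11 to 0.0405, positive without HSC_Ctrl replicate 2 (0.0405), LSK_Ctrl replicate 2 (0.0269) or LSK_RBC replicate 1 (0.0110). Ndufa4 passed between LSK cells and HSCs without the fold threshold, at 0.29 alone and 0.33 with RBCs.

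The replicate numbers did not pair the libraries (correlation of deviations -0.067 to 0.095), and with the replicate block the adjusted p of Ndufa4 between LSK cells and HSCs was 0.066 alone and 0.0307 with RBCs. With it, 0 NF-kB genes were called in LSK cells with RBCs, against 1.

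With 1 library left out, the log2 ratio of AA467197 to Ndufa4 with RBCs in LSK cells ranged from 2.19 without LSK_Ctrl replicate 1 to 3.02 without replicate 2, the difference of its effects from -0.54 to 0.29, and LSK cells against HSCs alone from -0.44 to 0.39.

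Counts and medians of the lists moved with the settings, and so did the calls over all genes tested. Between LSK cells and HSCs with RBCs, 313 of all genes were called higher and 120 lower. With a pseudocount of 0.1 these were 406 and 223, and with 0.01 they were 384 and 218. In HSCs with RBCs, 76 were called higher and 17 lower, against 86 and 27 with 0.1. Whether the lists moved more than all genes was not tested. With pseudocounts of 0.1 and 0.01, 5 NF-kB genes were called between LSK cells and HSCs with RBCs, and with 0.1 also 4 in HSCs with RBCs and 2 complex IV subunits between the populations with RBCs, as with quantile normalization. Without the filter 0 NF-kB genes were called with RBCs in either population. With at least 1 FPKM in all libraries 0 complex IV subunits were called, since Cox6a2 was left out, and the NF-kB median in LSK cells was 0.26. Median-ratio scaling and no trend gave 0 NF-kB calls in LSK cells, and no trend or only the groups compared 1 in HSCs. Quantile normalization moved the medians of LSK cells against HSCs to -0.0137 alone and -0.0823 with RBCs for complex IV subunits and to -0.14 with RBCs for NDUFA subunits.

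When the fold threshold was left out, 1 of 15 complex IV subunits and 3 of 21 NF-kB genes passed in HSCs, against 2.53% of all genes, and 3 of 21 NF-kB genes in LSK cells, against 3.45%. Between the populations, 6 of 15 complex IV subunits, 1 of 28 assembly factors, 3 of 13 NDUFA subunits and 11 of 21 NF-kB genes passed alone, against 14.2% of all genes, and 7, 4, 5 and 8 with RBCs, against 24.4%.

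With 1 library left out, the median of the complex IV subunits ranged from -0.10 to 0.0473 with RBCs in HSCs and from -0.26 to 0.00207 between the populations alone, and that of the NDUFA subunits from -0.31 to -0.0742. Calls ranged from 1 to 2 for complex IV subunits between the populations, from 1 to 2 for NF-kB genes in HSCs and were 0 in LSK cells. Over all results and settings, 720 values kept direction and side of the threshold or stayed within the limits set, 86 moved beyond them, 5 were counted as changing sign and 2 newly passed. A change of sign was counted only for the tests of Ndufa4 and for values of at least 2-fold in the main fit. Smaller ratios and medians that changed sign are among the 720 or the 86.

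Cd48, lower with RBCs in HSCs, lost its call without the filter, HSC_Ctrl replicate 2 or HSC_RBC replicate 1. With 1 library left out its log2 difference was -1.33 to -0.84. Of markers called higher with RBCs, Hba-a1, Hbb-b1 and Ccr2 held in every setting that kept them. The filter of at least 1 FPKM in all libraries left them out. Each of the others was lost in at least 1: in HSCs, Alas2 without any 1 of the 4 HSC libraries, Csf1r without either library alone or replicate 2 with RBCs, and S100a8 and S100a9 without either library alone. In LSK cells, Csf1r was lost without either library with RBCs, Mmp8 without any 1 of the 4, Mmp9 without replicate 1 with RBCs, and Retnlg without either of these or replicate 2 alone.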
